A study of Mus musculus with 16 samples.

Results

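The nuclear genes of respiratory complexes II to V were selected by symbol, as Sdha to Sdhd, Cyc1 and all symbols that begin with Uqcr, Cox4 to Cox8 or Atp5. This gave 47 of the 18657 genes listed in quadriceps muscle, brown adipose tissue or both, with 46 of 17539 genes in quadriceps and 47 of 18000 in brown fat. Of the 47, 4 belonged to complex II, 9 to complex III, 17 to complex IV and 15 to complex V, which makes 45, with the supercomplex factor Cox7a2l counted under complex IV. Atp5s, known as coupling factor B, and Atp5sl, whose current symbol Dmac2 names a factor of complex I assembly, matched by symbol alone. Cox7b2, a testis isoform, was listed in brown fat only, at a mean that equals 1 read in 1 library.

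The tissues came from male C57BL/6 mice, 10 weeks of age and housed at room temperature, that were homozygous for the Ppargc1a allele labelled uORF-TAA or were wild-type littermates. Each genotype gave 4 libraries per tissue, 16 in all, and the labels name no other allele or treatment. Ppargc1a encodes PGC-1alpha, a transcriptional coactivator. An upstream open reading frame (uORF) is a small frame that ribosomes can translate ahead of a main coding sequence, and TAA is a stop codon. The labels name no restriction of the allele to a tissue, nor whether 1 mouse gave both tissues. The files give each gene 1 mean normalized count over both genotypes of a tissue and 1 fold change between them, so no value per library was analysed here.

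Complexes II and III pass electrons from succinate and ubiquinol to cytochrome c, complex IV passes them to oxygen, and complex V, the ATP synthase, uses the proton gradient that complexes III and IV help to build. PGC-1alpha is known as an activator of many of these genes, acting with transcription factors such as NRF1 and the estrogen-related receptors. Muscle uses the gradient mainly for ATP, whereas brown adipocytes let protons return through UCP1 and give off heat, and rodent brown fat is known for little ATP synthase relative to its other complexes. Several complex IV subunits exist as isoforms of heart and muscle or of liver, so named for the tissues in which they were first told apart.

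The estimated depth ran from 11.4 to 31.8 M counts (M, mega) per library in quadriceps and from 11.0 to 17.8 M in brown fat. The labelled tissues carried their own markers, and none of the 3 lists used for this check was at 0 in either tissue. The 12 brown adipocyte markers were all higher in brown fat, where Ucp1 had a mean normalized count of 47561, against 6.70 in quadriceps, in the authors' deposited table of each tissue. The 16 skeletal muscle fibre markers took 23.4% of all counts in quadriceps and 1.29% in brown fat, and the 12 general adipocyte markers took 0.206% in quadriceps and 4.21% in brown fat. Ppargc1a itself had a log2 fold change, uORF-TAA over wild type, of 0.06 ± 0.13 (SE) in quadriceps and 0.0016 ± 0.11 (SE) in brown fat in the authors' deposited table. The sign holds if the genotype named first in each table is the numerator, which was assumed.

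Between genotypes, 0 of 46 members in quadriceps and 0 of 43 in brown fat had an adjusted p under 0.05, by the Wald test of DESeq2 that the authors ran, with Benjamini-Hochberg adjustment. The background was 0.0% of 17521 genes in quadriceps and 0.0863% of 9272 genes in brown fat. With p under 0.05 and no adjustment there were also 0 members in each tissue, against 2.0% of 17521 genes in quadriceps and 2.07% of 17973 in brown fat. In brown fat 4 of the 47 members, Cox4i2, Cox6b2, Cox7b2 and Atp5l, had no adjusted p. Their mean normalized counts reached 61.1 at most in the authors' deposited table. The absence of a call does not show that the genotypes were alike, and the intervals below give the sizes that the deposited values allow.

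The fold changes of the members were small in both tissues. In quadriceps they ran from -0.13 for Uqcrb to 0.17 for Atp5e on the log2 scale, per the authors' deposited table, with a median of 0.02, beside a median of 0.0024 over all genes. In brown fat they ran from -0.09 for Atp5l to 0.11 for Uqcrc1 in the authors' deposited table, with a median of 0.03, beside 0.0015 over all genes. The value was above 0 for 30 of 46 members in quadriceps, against 51.7% of all genes, and for 35 of 47 in brown fat, against 51.2%. These counts describe genes measured in the same libraries and were not tested. Over all members, the 95% intervals lay between -0.38 and 0.39 in quadriceps and between -0.34 and 0.32 in brown fat. These bounds are on the scale of the deposited values, which behave as shrunken towards 0, so unshrunken changes could be larger.

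**Figure D1:**
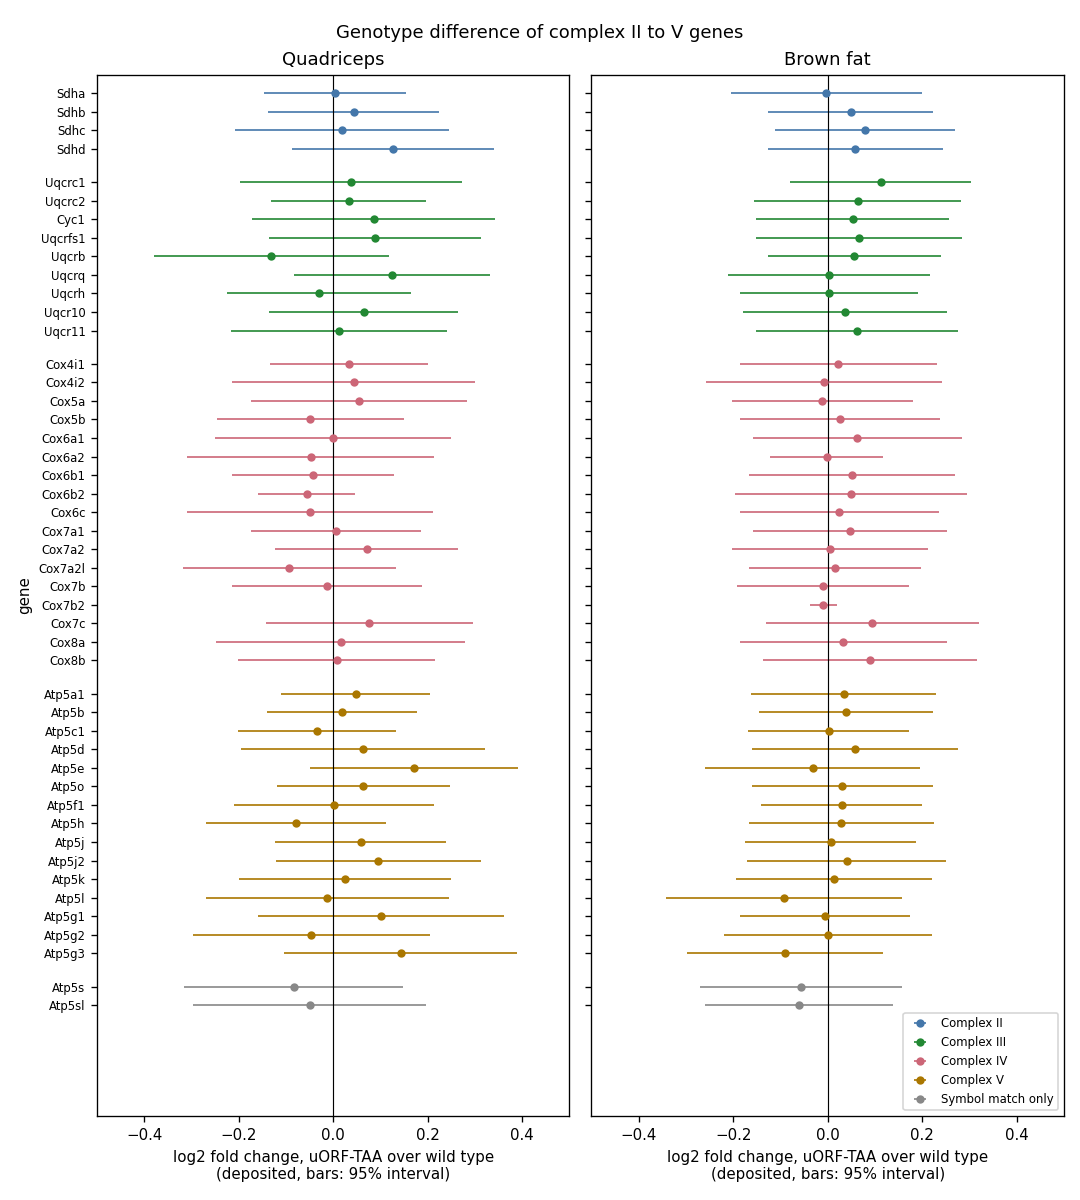
Deposited log2 fold change of each member, uORF-TAA over wild type, in quadriceps (left) and brown fat (right), with 95% intervals as bars and colours for the complexes. All intervals cross 0, and the points lie between -0.13 and 0.17 in quadriceps and between -0.09 and 0.11 in brown fat.

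Complex II, succinate dehydrogenase, is shared with the citric acid cycle. Its median log2 fold change was 0.03 in quadriceps and 0.05 in brown fat. The member of smallest p in quadriceps was Sdhd, a membrane anchor, at 0.13 ± 0.11 (SE) in the authors' deposited table, with p = 0.244 in the DESeq2 test. In brown fat it was the other anchor, Sdhc, at 0.08 ± 0.10 (SE) and p = 0.419 in the DESeq2 values of the authors' deposited table. Sdha, which holds the succinate binding site, stood at 0.0037 ± 0.08 (SE) in quadriceps and -0.0025 ± 0.10 (SE) in brown fat in the authors' deposited table. None of these passed the test.

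Complex III, the cytochrome bc1 complex, had a median log2 fold change of 0.04 in quadriceps, with 7 of 9 values above 0, and of 0.06 in brown fat, with 9 of 9 above 0. Uqcrc1, core protein 1, had the smallest p of all members in brown fat, at 0.11 ± 0.10 (SE) and p = 0.251 in the DESeq2 values of the authors' deposited table. In quadriceps the smallest p of the complex was that of Uqcrq, a supernumerary subunit, at 0.12 ± 0.11 (SE) and p = 0.238 in the DESeq2 values of the authors' deposited table. Uqcrb, another supernumerary subunit, had the lowest value of all members there, -0.13 ± 0.13 (SE), against 0.06 ± 0.09 (SE) in brown fat, in the authors' deposited table. The cytochrome c1 gene Cyc1 and the Rieske iron-sulfur protein gene Uqcrfs1 had values of 0.09 and 0.09 in quadriceps and of 0.05 and 0.07 in brown fat in the authors' deposited table. None of these values passed the test. Of the 12 general adipocyte markers, 10 also had values above 0 in brown fat, with a median of 0.11. Of the 12 brown adipocyte markers, 11 had values above 0 there, with a median of 0.04. Over all genes in brown fat, 51.2% had values above 0. The part of either list in the complex III values was not tested.

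Complex IV, cytochrome c oxidase, had a median log2 fold change of 0.0027 in quadriceps, with 8 of 16 values above 0, and of 0.02 in brown fat, with 12 of 17 above 0. The smallest p in quadriceps belonged to Cox6b2, a testis isoform of subunit 6b with a mean normalized count of 1.30, at -0.06 ± 0.05 (SE) and p = 0.279 in the DESeq2 values of the authors' deposited table. In brown fat it belonged to Cox7c at 0.09 ± 0.12 (SE) and p = 0.411 in the DESeq2 values of the authors' deposited table. No isoform of muscle or of liver passed the test. In quadriceps the muscle isoform genes Cox6a2, Cox7a1 and Cox8b stood at -0.05, 0.0059 and 0.0074 on the log2 scale, per the authors' deposited table. Their liver counterparts Cox6a1, Cox7a2 and Cox8a had -0.00047, 0.07 and 0.02 there. For brown fat the authors' deposited table lists -0.0022, 0.05 and 0.09 for the muscle isoforms and 0.06, 0.0051 and 0.03 for the liver isoforms.

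Complex V had a median log2 fold change of 0.05 in quadriceps and 0.01 in brown fat, with 11 of 15 values above 0 in each. Atp5e, the epsilon subunit of the catalytic F1 part, had the highest value and the smallest p of all members in quadriceps, at 0.17 ± 0.11 (SE) and p = 0.128 in the DESeq2 values of the authors' deposited table. Its value in brown fat was -0.03 ± 0.12 (SE) in the authors' deposited table. The 3 genes Atp5g1, Atp5g2 and Atp5g3 encode the same mature c subunit of the membrane ring. Their quadriceps values, as log2 fold changes, were 0.10 ± 0.13, -0.05 ± 0.13 and 0.14 ± 0.13 (SE), per the authors' deposited table. The authors' deposited table for brown fat gave them -0.0051 ± 0.09, 0.00099 ± 0.11 and -0.09 ± 0.11 (SE). Atp5g3 had the smallest p of complex V in brown fat, 0.390 in the DESeq2 values of the authors' deposited table. Within complex V the F1 part had medians of 0.05 in quadriceps and 0.03 in brown fat, and the peripheral stalk had 0.03 in each. The membrane part, Fo, had medians of 0.06 in quadriceps and -0.0021 in brown fat. Outside the complexes, Atp5s and Atp5sl stood at -0.08 and -0.05 in quadriceps, and both at -0.06 in brown fat, in the authors' deposited table.

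**Figure D2:**
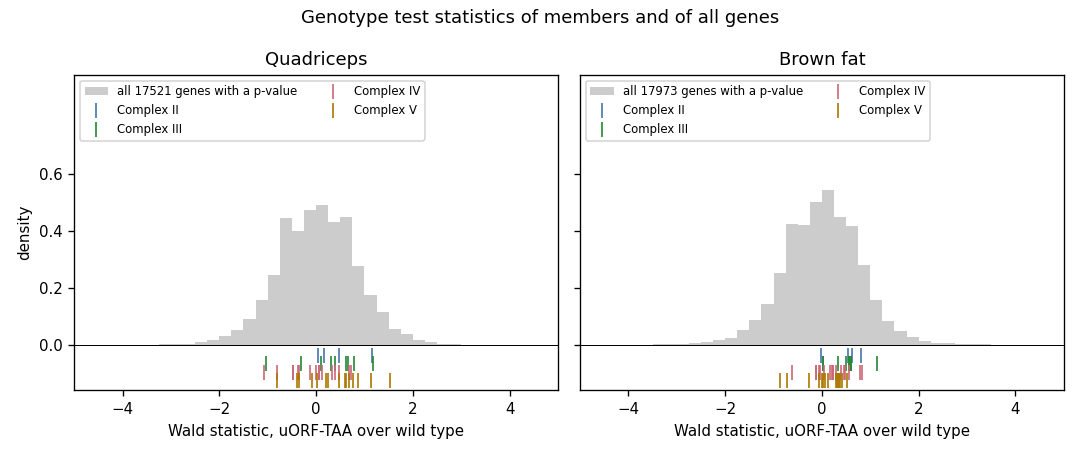
Wald statistic (horizontal axis) of the genotype test in quadriceps and brown fat, as a density over all genes with a p-value (grey) and as 1 tick per gene of complexes II to V below it, coloured by complex. The member statistics lie within 1.52 of 0 in quadriceps and within 1.15 of 0 in brown fat.

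The genotype difference was also compared between tissues. The difference of the log2 fold changes, quadriceps less brown fat, passed an adjusted p of 0.05 for 0 of 46 members, against 0.0% of 16844 genes. At an unadjusted p under 0.05 it held 0 members and 1.16% of all genes. As the tables were read here, the highest difference was that of Atp5g3, 0.23 ± 0.16 (SE), with an adjusted p of 1.00 in a two-sided normal test on the DESeq2 values of both tables. The lowest was that of Uqcrb, -0.19 ± 0.16 (SE), also with an adjusted p of 1.00. The test takes the tissues as independent, and both the sizes and their order rest on the reading of the tables. With the brown fat sign as deposited, Atp5g3 had 0.05 ± 0.16 (SE) and Uqcrb -0.08 ± 0.16 (SE), the highest was Sdhd at 0.19 ± 0.14 (SE) and the lowest Atp5s at -0.14 ± 0.16 (SE), again with adjusted p of 1.00 on the DESeq2 values.

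Other genes of these complexes gave the same count. None of the 3 measured complex II assembly factors, 5 of complex III or 22 of complex IV passed the deposited DESeq2 test in either tissue. Nor did any of the 6 measured factors and further subunits of complex V. Over all genes, 0.0% of 17521 passed in quadriceps and 0.0863% of 9272 in brown fat, so these counts do not set the lists apart. In brown fat Sco2, Fastkd3 and Atpaf1 of these lists had no adjusted p, so 20 of the 22 complex IV factors and 5 of the 6 of complex V could have passed there. The smallest p among them in quadriceps was that of Tmem70, an assembly factor of the ATP synthase, at 0.20 ± 0.11 (SE) and p = 0.0715 in the DESeq2 values of the authors' deposited table. In brown fat it was that of Atpaf2, which chaperones the F1 alpha subunit, at 0.16 ± 0.09 (SE) and p = 0.0866 in the DESeq2 values of the authors' deposited table. For complex IV, Sco1, a copper chaperone, had 0.18 ± 0.12 (SE) and Taco1, a translational activator, had 0.16 ± 0.11 (SE) in quadriceps in the authors' deposited table. Cytochrome c (Cycs) had 0.06 in quadriceps and 0.04 in brown fat in the authors' deposited table. The subunits that mitochondrial DNA encodes were not analysed here.

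Levels were then set side by side between tissues. To compare genes, each mean normalized count over the 8 libraries of a tissue was divided by transcript length in kilobases and scaled so that all genes of the table sum to 1000000, which is the scale known as TPM. The tables were normalized separately, a table of 1 tissue shares a fixed total among its genes, and no spread over mice can be given for a level, so tissue ratios are descriptions with no test. In bulk tissue, fewer cells of a type and less RNA per cell cannot be told apart. The members summed to 23844 TPM in quadriceps and 84079 in brown fat, and took 1.00% of counts in quadriceps and 4.09% in brown fat. The median member stood at 497 TPM in quadriceps and 1571 in brown fat, beside 4.12 in quadriceps and 6.75 in brown fat for the median of all genes. The muscle fibre markers, which summed to 275122 TPM in quadriceps and 13469 in brown fat, occupy part of the fixed total, and their part in the ratios was not tested.

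Of the 46 members listed in both tissues, 42 had the higher level in brown fat. The median log2 ratio, quadriceps over brown fat, was -1.71, beside -0.82 over all genes. As that second median is below 0, most genes also had the higher level in brown fat. By complex the medians were -1.90 for complex II, -2.03 for complex III, -1.87 for complex IV and -1.28 for complex V. Summed over their members, the levels in quadriceps were 0.277 times those in brown fat for complex II, 0.279 times for complex III, 0.206 times for complex IV and 0.405 times for complex V. The 4 members higher in quadriceps were Cox6a2 at a log2 ratio of 2.95, Atp5g1 at 2.70, Atp5j, a stalk subunit, at 0.34 and Atp5s at 0.21. At the other end were Cox6a1 at -6.81, Cox8a at -5.74 and Cox6b2 at -5.70. The ratio of Cox6b2 rests on a mean normalized count of only 1.30 in quadriceps.

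**Figure D3:**
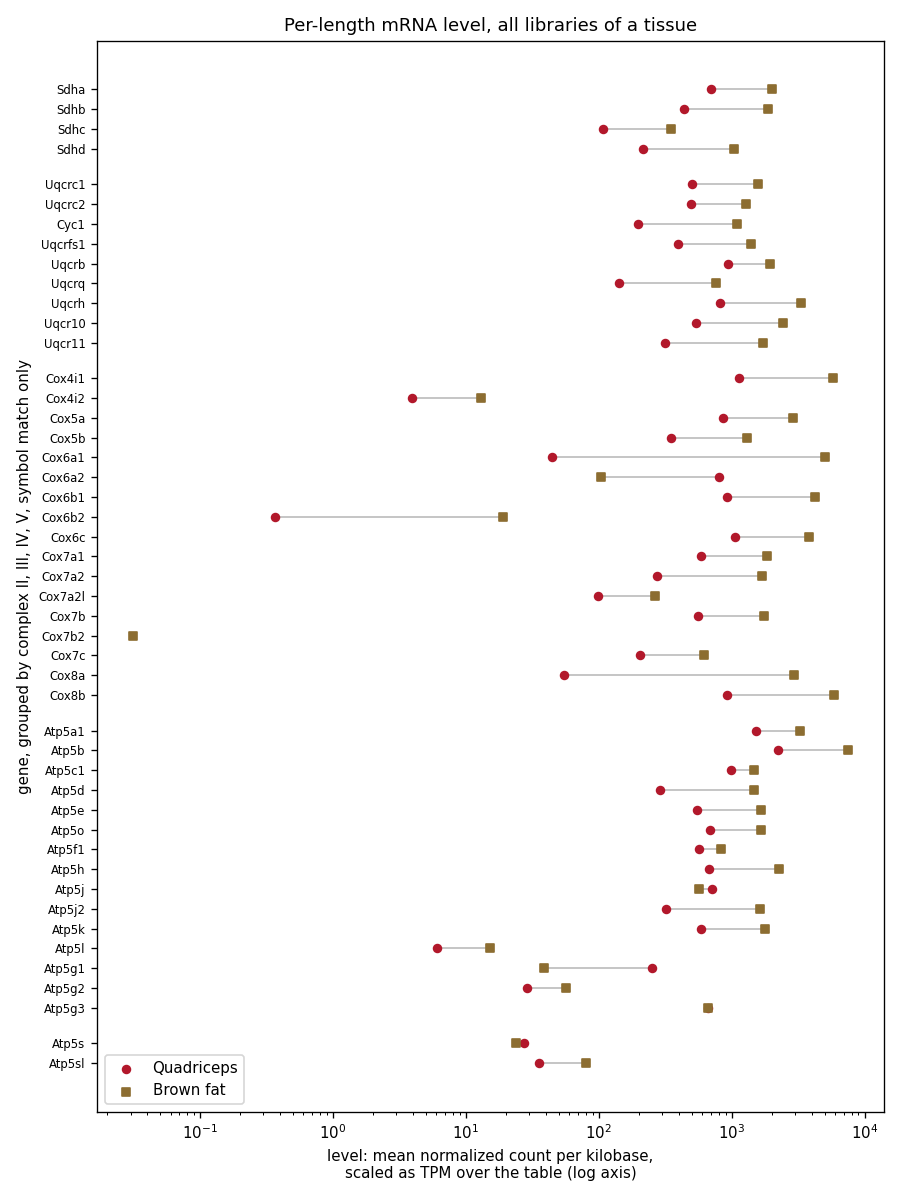
Level of each member in quadriceps and brown fat, as mean normalized count per kilobase in TPM, on a log axis, grouped by complex. For 42 of 46 members the brown fat point is the higher one, and Cox6a2 and Atp5g1 run the other way.

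Within complex II the highest level was that of Sdha, 699 TPM in quadriceps and 2006 in brown fat. The lowest was that of Sdhc, at 109 in quadriceps and 350 in brown fat. In complex III Uqcrb was highest in quadriceps at 937 TPM, Uqcrh, the hinge protein, was highest in brown fat at 3348, and Uqcrq was lowest in both, at 143 in quadriceps and 758 in brown fat. Some of these ranks depend on the division by length. By mean normalized count, Uqcr11 was lowest in complex III, at 1158 in quadriceps and 4902 in brown fat. The highest there were Uqcrc2 in quadriceps at 7734 and Uqcrc1 in brown fat at 16754. The lowest count of complex II in quadriceps was that of Sdhd, 2190. In complex V Atp5b, the catalytic beta subunit, was the highest of all members, at 2225 TPM in quadriceps and 7516 in brown fat. Atp5a1, the alpha subunit that alternates with beta in the same hexamer, stood at 1530 in quadriceps and 3257 in brown fat. Atp5l, a small membrane subunit, was lowest in complex V at 6.05 TPM in quadriceps and 15.1 in brown fat, but 76.0% of its 75-base windows also occur in another annotated gene. The counter's treatment of such reads is not given, so the levels of Atp5l, of Cox7c with 50.4% shared windows, of Atp5g1 with 59.6% and of Atp5g2 with 86.9% are uncertain. Of the 47 members, 27 shared no such window and 10 shared over 20% of theirs, among them Uqcrb with 29.1%.

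Subunit 4 of complex IV was almost entirely the general isoform. Cox4i1, the highest complex IV member in quadriceps, had 1137 TPM there and 5808 in brown fat. Cox4i2, the isoform known from lung and low oxygen, had 3.93 TPM in quadriceps and 13.0 in brown fat, a share of the family of 0.344% in quadriceps and 0.224% in brown fat. For subunit 6b the testis isoform Cox6b2 stood at 0.364 TPM in quadriceps, the lowest member there, and at 18.9 in brown fat.

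Subunits 6a, 7a and 8 each have a muscle and a liver isoform. The promoters found are shown with their CpG content, a feature the symbol rule did not use. CpG was counted after the sequences had been seen. Each window is the 250 bases before the start in RefSeq, build GRCm38.p6, 5′ to 3′ on the gene's strand. Capitals mark letters that match TGCGCA (for NRF1), AAGGTCA (estrogen-related receptor), CCAAT or CANNTG (the E-box) on either strand, and matches may overlap. TGCGCA is only a part of the full NRF1 motif, so a longer NRF1 site can stay unmarked. Windows were found for 37 of the 47 members, and for 5 of these 6 isoforms, all but Cox6a2. The Cox6a1 window is chr5:115348959-115349208 on the minus strand, that of Cox7a1 is chr7:30183921-30184170 on the plus strand and that of Cox7a2 is chr9:79759854-79760103 on the minus strand. The Cox8a window is chr19:7217617-7217866 and that of Cox8b is chr7:140900447-140900696, both on the minus strand.
Cox7a1: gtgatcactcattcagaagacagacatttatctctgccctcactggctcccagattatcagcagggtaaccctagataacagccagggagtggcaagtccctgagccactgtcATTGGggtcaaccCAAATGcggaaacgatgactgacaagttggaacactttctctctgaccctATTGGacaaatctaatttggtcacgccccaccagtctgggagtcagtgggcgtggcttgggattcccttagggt
Cox8b: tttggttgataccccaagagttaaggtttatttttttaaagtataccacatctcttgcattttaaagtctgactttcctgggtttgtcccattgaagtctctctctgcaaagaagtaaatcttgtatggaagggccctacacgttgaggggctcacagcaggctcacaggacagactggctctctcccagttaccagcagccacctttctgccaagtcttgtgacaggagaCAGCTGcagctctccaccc
Cox6a1: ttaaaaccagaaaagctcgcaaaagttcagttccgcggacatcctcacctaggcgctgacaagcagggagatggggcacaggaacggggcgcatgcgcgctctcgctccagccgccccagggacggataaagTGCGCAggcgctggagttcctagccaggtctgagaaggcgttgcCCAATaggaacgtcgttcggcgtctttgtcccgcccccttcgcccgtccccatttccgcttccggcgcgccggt
Cox7a2: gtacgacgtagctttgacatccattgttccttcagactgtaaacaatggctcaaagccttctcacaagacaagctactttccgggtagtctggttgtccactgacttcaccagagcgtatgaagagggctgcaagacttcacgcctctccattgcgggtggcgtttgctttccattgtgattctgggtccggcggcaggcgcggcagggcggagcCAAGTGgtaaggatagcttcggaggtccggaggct
Cox8a: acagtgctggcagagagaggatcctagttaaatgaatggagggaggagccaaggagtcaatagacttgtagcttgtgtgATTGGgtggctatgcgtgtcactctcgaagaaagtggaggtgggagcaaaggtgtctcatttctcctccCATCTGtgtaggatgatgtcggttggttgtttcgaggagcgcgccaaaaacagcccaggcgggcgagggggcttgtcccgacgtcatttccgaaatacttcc

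The muscle isoform windows held 4 CpG dinucleotides in Cox7a1 and 1 in Cox8b. The liver isoform windows held 26 in Cox6a1, 14 in Cox7a2 and 11 in Cox8a. The median over 17788 windows of listed genes was 13. TGCGCA occurred in the Cox6a1 window only among these 5, and Cox7a1 held CCAAT on the reverse strand at 2 places. The Cox6a1 window also held gcgcatgcgc, which the search for TGCGCA did not match and left in lower case. Over the 37 members, TGCGCA was found in 7, or 18.9%, against 11.1% of 14250 genes. These are counts of TGCGCA and not of full NRF1 sites. CCAAT was found in 56.8% of members against 39.3% of genes, and the E-box in 67.6% against 64.4%. The estrogen-related receptor motif was found in 2 members, or 5.41%, against 3.90% of genes. The window was shortened after motifs had been counted in 300 bases, with 50 bases after the start included. In the longer window the estrogen-related receptor motif was found in 5 members, or 13.5%, against 4.34% of genes. There TGCGCA was in 8 members, or 21.6%, against 13.2%, CCAAT in 56.8% against 41.9% and the E-box in 73.0% against 70.1%. A match describes letters in the window and shows no binding.

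Of these 3 subunits, the isoform share differed most between tissues in subunit 6a. The muscle isoform Cox6a2 had a mean normalized count of 4529 in quadriceps and 458 in brown fat in the authors' deposited table of each tissue. The liver isoform Cox6a1 had 210 in quadriceps and 18516 in brown fat in the authors' deposited table of each tissue. Per length, Cox6a2 made up 94.8% of the pair in quadriceps and 2.04% in brown fat. It was 18.1 times Cox6a1 in quadriceps, while Cox6a1 was 48.1 times Cox6a2 in brown fat. Without division by length its share was 95.6% in quadriceps (Wilson 95% interval 95.4% to 95.8%) and 2.42% in brown fat (2.34% to 2.49%), with intervals that cover counting error only. Cox6a2 shared no window with another gene, and Cox6a1 shared 6.44% of its windows.

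Cox6a2, at 104 TPM in brown fat, stood there beside transcripts of muscle fibres. All 16 muscle fibre markers were listed in brown fat, at levels from 54.3 to 2444 TPM, and 13 of the 16 were lower there than in quadriceps. The 3 others, Myh7, Tnnc1 and Tnni1, mark slow fibres and were higher in brown fat. The summed level of the list in quadriceps was 20.4 times that in brown fat, beside 7.75 times for Cox6a2. The standard error of the genotype fold change of Cox6a2 in brown fat was 0.06 in the authors' deposited table, lower than in 99.7% of the 9389 genes with a mean of at least 100. The 16 muscle markers had standard errors from 0.05 to 0.08 in the authors' deposited table for brown fat, and the 42 other members of that depth had at least 0.09. A low standard error need not mark a precisely measured gene in these values. Cox6b2 in quadriceps, with a mean normalized count of 1.30, had 0.05 in the authors' deposited table. Cox7b2 in brown fat, with a mean of 0.109, had 0.015. The part of muscle RNA in the brown fat level of Cox6a2 was not tested. Of the muscle markers in brown fat, 4 of 16 had a genotype value above 0, against 51.2% of all genes. Among them 0 were called, against 0.0863% of 9272 genes.

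Subunit 8 differed between tissues in degree. The muscle isoform Cox8b had mean normalized counts of 2724 in quadriceps and 13782 in brown fat in the authors' deposited table of each tissue. The liver isoform Cox8a had 248 in quadriceps and 10406 in brown fat in the authors' deposited table of each tissue. Cox8b thus had the larger share in both tissues, 94.4% per length in quadriceps and 66.9% in brown fat, or 16.8 times Cox8a in quadriceps and 2.02 times in brown fat. At 5934 TPM it was the highest complex IV member in brown fat, although Cox4i1 had the higher mean count there before division by length, 27917 in the authors' deposited table. Its level in brown fat was higher than in quadriceps, unlike that of Cox6a2.

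Of the 3 subunits, the share differed least in subunit 7a. Cox7a1, the muscle isoform, had mean normalized counts of 1889 in quadriceps and 4691 in brown fat in the authors' deposited table of each tissue. Cox7a2, the liver isoform, had 1496 in quadriceps and 7161 in brown fat in the authors' deposited table of each tissue. Per length, Cox7a1 made up 67.9% of the pair in quadriceps and 52.3% in brown fat. Which isoform leads in brown fat depends on the length correction, since Cox7a1 had 39.6% of the counts there without one. The muscle isoform share was higher in quadriceps than in brown fat with and without it.

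**Figure D4:**
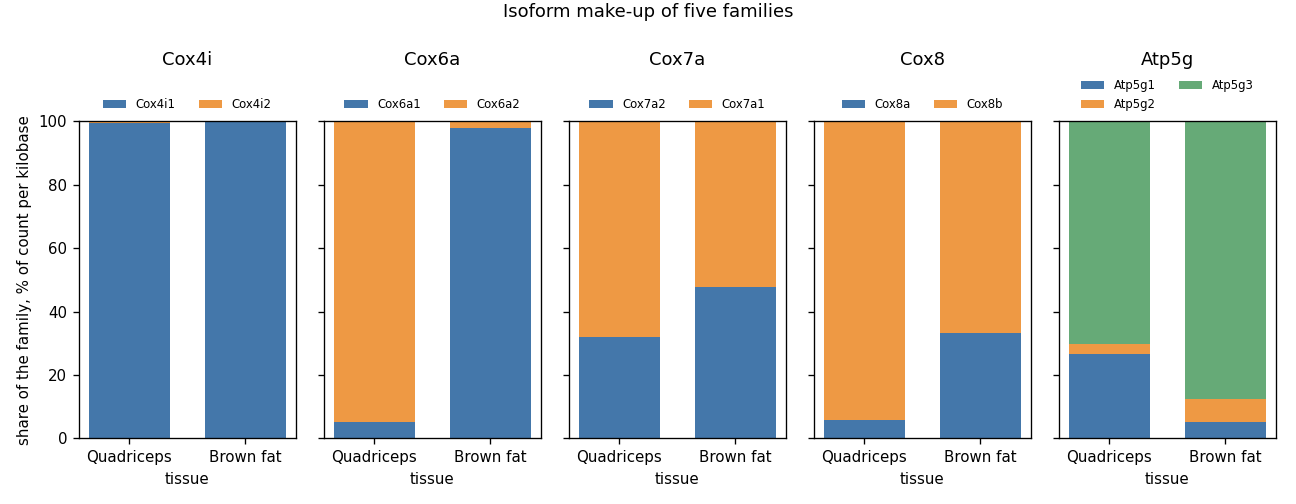
Share of each isoform within its family, in percent of the summed count per kilobase, for quadriceps (left bar) and brown fat (right bar) in the Cox4i, Cox6a, Cox7a, Cox8 and Atp5g families. The muscle isoform takes 94.8% of Cox6a in quadriceps and 2.04% in brown fat, 67.9% of Cox7a in quadriceps and 52.3% in brown fat, and 94.4% of Cox8 in quadriceps and 66.9% in brown fat.

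The c subunit genes of complex V also split by tissue. Atp5g3 had nearly the same level in both, 659 TPM in quadriceps and 669 in brown fat. Atp5g1, which has been named as a limit on ATP synthase content in brown fat, stood at 251 TPM in quadriceps and 38.6 in brown fat. Atp5g2 had 28.8 TPM in quadriceps and 56.6 in brown fat. Shares of the family per length were 70.2% for Atp5g3, 26.7% for Atp5g1 and 3.07% for Atp5g2 in quadriceps. In brown fat they were 87.5% for Atp5g3, 5.05% for Atp5g1 and 7.40% for Atp5g2. These shares depend on how shared sequence is treated. Scaling each count by unshared windows, a choice made after seeing the data, gave 43.5% for Atp5g3, 42.0% for Atp5g1 and 14.5% for Atp5g2 in quadriceps. In brown fat the same scaling gave 55.9% for Atp5g3, 8.15% for Atp5g1 and 36.0% for Atp5g2.

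**Figure D5:**
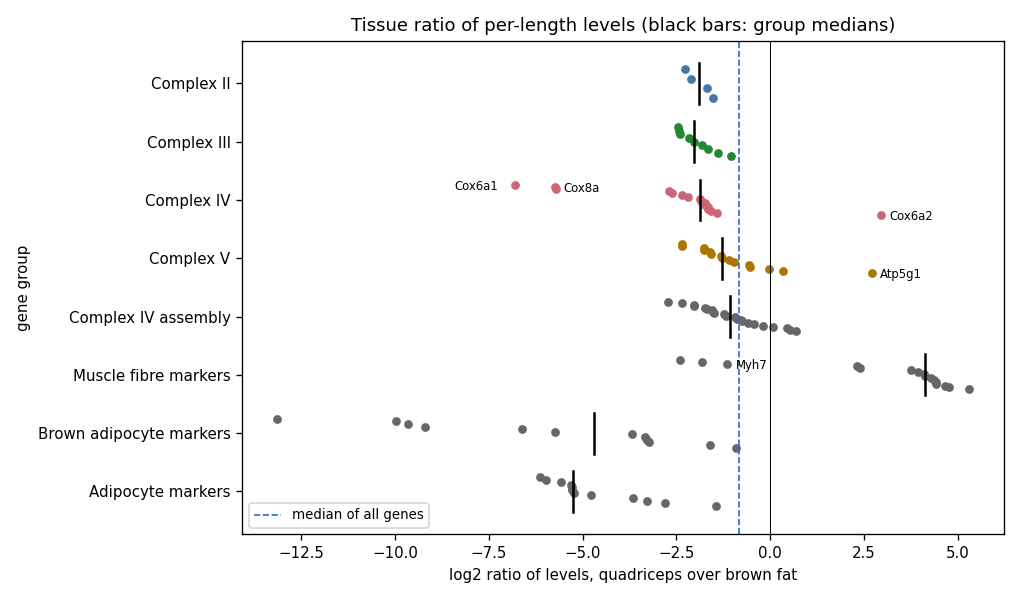
Log2 ratio of per-length levels, quadriceps over brown fat, with 1 point per gene for each complex, complex IV assembly factors and marker lists. Black bars are group medians and the dashed line is the median of all genes at -0.82, and the medians of complexes II to V lie between -2.03 and -1.28.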

How the data were processed

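The mRNA of quadriceps and brown fat was sequenced as stranded libraries of single-end reads, per the labels' protocols. The submitters' processing notes name STAR 2.5.1b, mm9 and DESeq2 1.10.1. Which annotation and counter served is not given in the sources used here. Per the file headers, each tissue has a table with a mean normalized count, a signal made by the authors over 8 libraries. Fold changes and standard errors are log2 values as deposited, and the Wald statistic, a deposited score, is their quotient. Each p-value was made by the authors from that score and then adjusted, and the design foresaw the use of this test. The fold changes behave as shrunken, which no header states. No header gives the numerator: the genotype that each table names first was taken as numerator, so the sign of the brown fat table was reversed to read uORF-TAA over wild type. Had the assumption failed for 1 tissue, its directions would turn over.

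Calls were made at a deposited adjusted p under 0.05, and intervals are the fold change and its 95% normal bounds. Transcript lengths, the lower median of the coding transcripts of a gene, came from GENCODE M21 and cover 99.0% of the genes listed per tissue. Windows of 75 bases shared with another gene were counted there. Depth per library was estimated from the levels of genes with 1 read in 1 library. It limits the rare isoforms most, and Wilson 95% intervals of isoform shares cover counting error only. The difference between tissues was tested with a two-sided normal p and Benjamini-Hochberg adjustment, using Python 3.11.15, pandas 2.3.3 and scipy 1.17.1, and the procedure was first tested on simulated data. Alternatives covered the adjustment, filters on mean count, the null, the centring, the choice of length and the reading of the sign. Each p-value of the genotype test weighs a fold change against its standard error, with 4 libraries per genotype and tissue. Those of the difference between tissues rest on the deposited standard errors and take the tissues as independent.

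The members, lists and markers were chosen with earlier results of these data known. Named were the members of the Cox4i, Cox6a, Cox7a, Cox8 and Atp5g families, and per complex the member of smallest p. The members of highest and lowest level per complex and up to 4 genes of smallest p per pathway list were also named. Not all of these are given with a fold change, a standard error and a p-value. Cyc1, Uqcrfs1, Sdha, Atp5a1, Atp5j, Atp5s and Cycs are members or list genes named for their role.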

Additional observations from a re-analysis of the deposited data

How the results depend on the processing

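The count of called members in each tissue was 0 with adjustment over all genes, minimum means of 10 and 50, a threshold of 0.1, an empirical null and centring. For the difference between tissues it was 0 with the brown fat sign as deposited and with a minimum mean of 50 in both, the alternatives run for it. The median log2 fold change kept its sign except with the brown fat sign as deposited, where it was -0.029. Isoform shares moved beyond counting error with the length used. Without length, with coding length and with unshared windows, in that order, the shares in quadriceps were 95.6%, 96.1% and 94.3% for Cox6a2, 55.8%, 56.7% and 69.8% for Cox7a1, 91.6%, 91.5% and 94.8% for Cox8b, and 73.4%, 72.8% and 43.5% for Atp5g3. In brown fat they were 2.42%, 2.78% and 1.86% for Cox6a2, 39.6%, 40.5% and 54.6% for Cox7a1, 57.0%, 56.6% and 68.8% for Cox8b, and 88.1%, 88.2% and 55.9% for Atp5g3. With unshared windows, Cox4i2 in brown fat was 0.204%. Unshared windows, the filter at 20% shared windows and the turned sign for the median were added after seeing the data. No paired analysis was possible because the deposited tables hold no value per library, and leaving out a replicate was not run for the same reason. Genes of few reads, such as Cox7b2 in brown fat and Cox6b2 in quadriceps, are limited by depth.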

Other observations

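The levels of assembly factors were also compared between tissues. Of the 22 measured complex IV factors, 18 had the higher level in brown fat, with a median log2 ratio, quadriceps over brown fat, of -1.06. The extremes were Cox17, the copper chaperone of the intermembrane space, at -2.73 and Taco1 at 0.68. Of the 5 measured complex III factors, 3 were higher in quadriceps, with a median of 0.05. Ttc19 had the highest ratio of these, 1.20. The 6 measured factors and further subunits of complex V had a median of -1.24, and the 3 measured complex II factors -0.85. Members had medians of -1.90 for complex II, -2.03 for complex III, -1.87 for complex IV and -1.28 for complex V. The median over all genes was -0.82. These values come from 1 mean per tissue and were not tested.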
